A study of Mus musculus with 9 samples.

Results

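Transcript levels of 10 complement and major histocompatibility complex (MHC) genes were examined in the paraventricular nucleus of the hypothalamus (PVN). These were C1qa, C1qb, C1qc, C3 and C4b of the complement system, B2m, H2-K1 and H2-D1 of MHC class I, and Cd74 and H2-Aa of MHC class II. The genes were taken by symbol from a count table of 27179 genes, and all 10 passed the filter on low counts that left 17344 genes to test. The samples were tissue punches from 9 male wild-type C57BL/6 mice (C57BL/6J in the study's methods), 3 mice in each of 3 groups. Fat supplied 16% of calories in the chow of Control mice. HFD mice were fed for 12 weeks a diet in which fat supplied 60%, and HFD+Mino mice ate that diet and drank water with the antibiotic minocycline at 40 mg/kg/day during the last 6 weeks. Mice started the diets at 5 weeks of age, and no group received chow together with minocycline. The labels give an age of 35 days for every sample, which was taken here as the age at the start of the diets.

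Complement is a cascade of plasma and tissue proteins. C1q, assembled from the A, B and C chains, recognises its targets and starts the classical pathway, C4 is cleaved next, and the pathways meet at C3. In the brain C1q is made chiefly by microglia, and C4 and C3 can be made by glia. Complement is known there for tagging synapses and debris. MHC class I presents peptides from inside the cell through a heavy chain (H2-K1, H2-D1) that pairs with beta-2-microglobulin (B2m), while class II presents peptides taken up from outside through chains such as H2-Aa, guided by the invariant chain Cd74.

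The measure was the number of reads per gene in bulk RNA, with totals from 17728590 counts in HFD replicate 1 to 42326213 in Control replicate 1. Levels are given in CPM, the usual rate of counts relative to the scaled library size, and each group mean is followed by its SD with n = 3. In bulk tissue, fewer cells of a type and less RNA per cell cannot be told apart. Punches also differed in tissue content. Summed over 6 markers of PVN neurons (Avp, Oxt, Crh, Trh, Sim1 and Otp), the level was 27.8 CPM in Control replicate 1, where Otp was at 0 and Avp at 0.149 CPM, 932 and 2560 CPM in the other Control samples, and 2480 to 3730 CPM in HFD. HFD+Mino replicates 1 and 2 reached 37700 and 31900 CPM, and replicate 3 had 3100 CPM. Oligodendrocyte markers summed to 29600 CPM in Control replicate 1 and to between 2260 and 6990 CPM in the other 8 samples. Avp, Oxt, Trh, Sim1 and Otp each had their lowest value in Control replicate 1, whereas Crh, at 20.6 CPM there, was above Control replicate 2 (18 CPM) and HFD replicate 1 (14.4 CPM). Control replicate 1 was thus the highest in oligodendrocyte markers and the lowest in the PVN neuron sum, and results are given with and without it where they rest on it. HFD+Mino replicates 1 and 2 stood apart at the upper end of the PVN neuron sum, and the part of this in the results was not tested. Markers of blood and lymphoid cells were scarce, with 19 of 20 at a mean under 1 CPM. Red cell markers summed to 101, 39 and 27 CPM in Control, 20.9 to 49 CPM in HFD, and 148, 118 and 23 CPM in HFD+Mino, so that Control replicate 1 and HFD+Mino replicates 1 and 2 were the highest, as they were for B2m, and their part in the results was not tested.

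Per kilobase of exon, B2m stood far above the other 9 genes. Its level in Control was 219 ± 132 RPKM (CPM divided by exon length in kilobases), and its lowest Control sample, 104 RPKM, lay above the highest of any other gene in the set, 45.1 RPKM for H2-D1. H2-D1 (36.4 ± 7.6 RPKM), C1qa (31.6 ± 11.7 RPKM), C1qb (31.6 ± 11.9 RPKM) and C1qc (31.3 ± 10.8 RPKM) followed in Control with overlapping samples. H2-K1 stood at 18.2 ± 7.08 RPKM. Cd74 (3.41 ± 2.95 RPKM) and C4b (2.93 ± 1.06 RPKM) overlapped each other, and C3 (0.614 ± 0.241 RPKM) and H2-Aa (0.366 ± 0.516 RPKM) were the lowest. In HFD the order changed at C4b, which reached 8.51 ± 2.39 RPKM with a lowest sample of 6.72 RPKM, above the highest HFD sample of Cd74 at 2.42 RPKM.

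**Figure D1:**
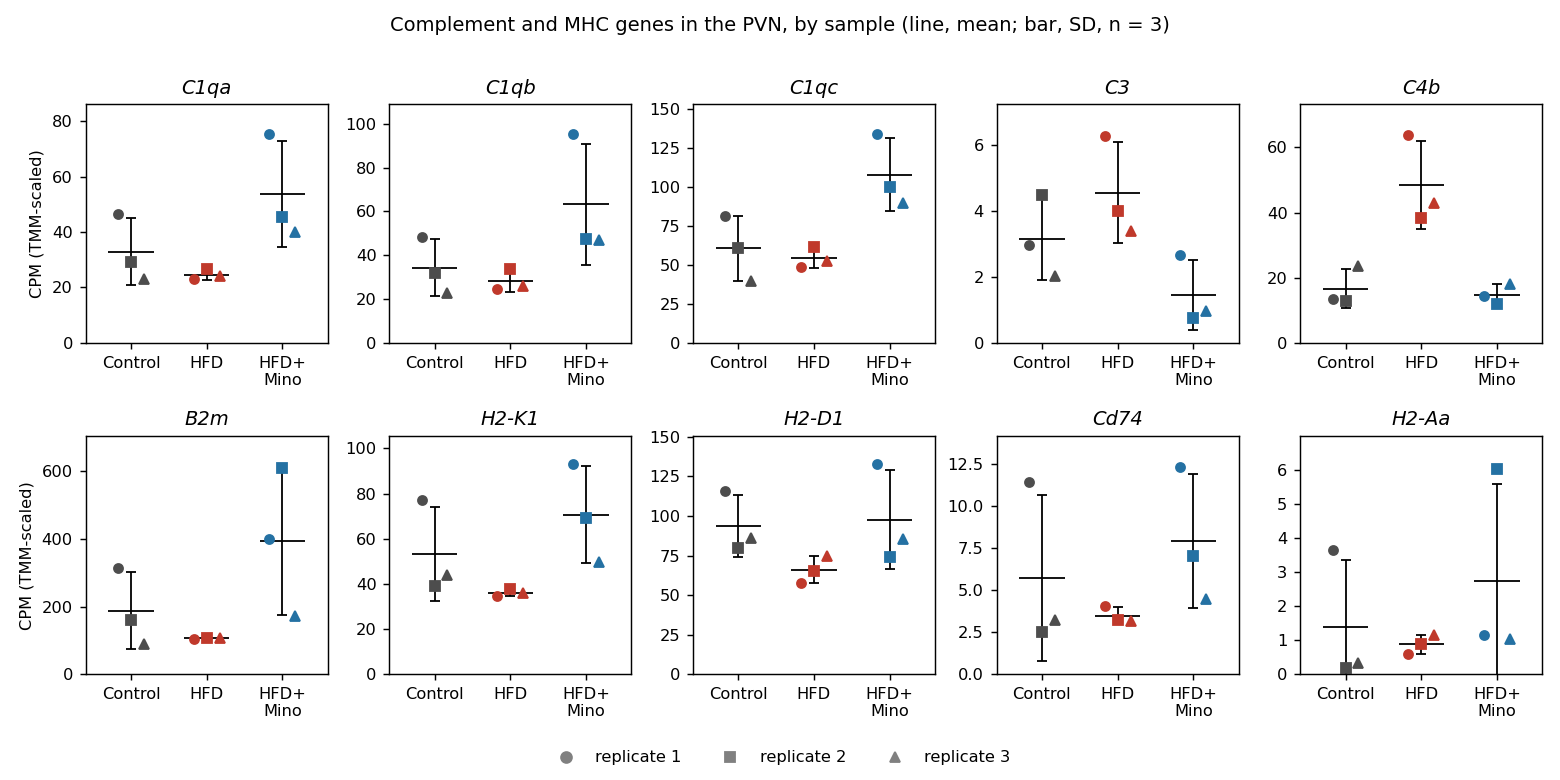
Level of each of the 10 genes in CPM (vertical axes, linear and starting at 0) in the 9 samples; symbols mark the replicate number, horizontal lines the group mean and bars the SD of 3 mice, cut off at 0. C4b is at 38.3 CPM or more in each HFD sample and at 23.6 CPM or less in every other sample, while the C1q chains and B2m are highest in HFD+Mino and high in Control replicate 1.

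C4b, which encodes the complement component cleaved after C1 is activated, was the only member called in any of the 4 tests. It was highest in HFD and lower in both other groups, with no overlap of samples on either side. The gene lies at chr17:34728139-34743902 (GRCm38), within the MHC region, and has 5695 nt of exon. Its levels were 13.4, 13 and 23.6 CPM in Control, 63.9, 38.3 and 43.1 CPM in HFD, and 14.4, 11.9 and 18.2 CPM in HFD+Mino. The HFD samples were thus all above the other 6, and Control and HFD+Mino overlapped.

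A gene was called in the 3-way test when it differed among groups at a false discovery rate (FDR) under 0.01 in the quasi-likelihood test of edgeR, Benjamini-Hochberg adjusted over all tested genes, with HFD as its highest or lowest group and 1.5-fold or more away from the mean over groups. This test called 369 of 17344 genes (2.13%, with 0.917% higher in HFD), and 1 of the 10 members, C4b, was among them. On the log2 scale C4b in HFD lay 1.08 above the mean of the groups (SE 0.17, FDR 0.00948), a 2.12-fold distance. Of all tested genes, 13.4% had every HFD sample above the other 6, as C4b did.

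Between HFD+Mino and HFD, C4b fell by 1.71 on the log2 scale (SE 0.32, FDR 0.00802), which is 3.26-fold. In this comparison 719 genes (4.15%) passed an FDR under 0.01 and 1.5-fold, 375 of them (2.16%) downward, and C4b was the only member called in either direction. HFD stood 1.54 above Control (SE 0.32, 2.91-fold), but with an FDR of 0.0167 the difference was not called, nor was any other member in that comparison, where 302 genes (1.74%) were. HFD+Mino and Control differed by -0.17 (SE 0.31, FDR 0.772). With replicate numbers fitted as blocks across Control and HFD+Mino, the difference between HFD and Control was 1.59 with an FDR of 0.00263, past the threshold, in a fit that called 6.22% of genes. The pairing behind this block was read from the same counts, so calls made with it, here and below, are no separate support. The call between HFD+Mino and HFD was lost when any 1 of the 3 HFD samples was left out (FDR 0.027 to 0.0379), or Control replicate 2 (0.0156), or HFD+Mino replicate 1 (0.0394) or 2 (0.0223), while the difference stayed between -1.88 and -1.46 whichever sample was left out. The 3-way call was lost in 7 of the 9 fits that left out 1 sample, with an FDR of up to 0.0597 without HFD replicate 1, and it held only when replicate 3 of Control (0.00483) or of HFD+Mino (0.00253) was left out. Without Control replicate 1 the 3-way FDR was 0.013 and HFD stood 1.40 above Control (FDR 0.0662).

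Of 214 windows of 50 nt, the length of a read, placed every 25 nt along the C4b transcript, 76 (35.5%) also occur in C4a, its near-identical neighbour. How reads with several positions were counted is not given in the sources used here, so part of the C4b signal is uncertain between these genes. C4a itself was at 0.324 to 0.954 CPM in the 9 samples and differed by -0.17 between HFD+Mino and HFD (FDR 0.874). Astrocyte markers, whose cells can make C4, summed to 4740 to 7190 CPM in Control, 5110 to 5980 CPM in HFD and 4570 to 5360 CPM in HFD+Mino. Aldoc alone made up 2170 to 4470 CPM of this sum. Single markers differed: of 10, 6 had a positive and 4 a negative estimate between HFD and Control, and 3 a positive and 7 a negative one between HFD+Mino and HFD. The median between HFD+Mino and HFD was -0.63, or -0.35 with the exon length trend described further on removed. By the quasi-likelihood test, 1 was higher and 5 lower at an unadjusted p under 0.05, and 0 were called. Of all genes, 41.3% had such a p. DESeq2 called 4, all lower, where it called 23% of all genes. Gfap was at 508, 152 and 139 CPM in Control and 164 to 183 CPM in HFD, while Slc1a3 was at 488 to 1040 CPM in Control, 1300 to 1450 CPM in HFD and 577 to 961 CPM in HFD+Mino. The ratio of C4b to Gfap was 0.234 to 0.349 in HFD, 0.0263 to 0.17 in Control and 0.098 to 0.129 in HFD+Mino, again with HFD above the other groups. The ratio of C4b to Slc1a3 was 0.0296 to 0.044 in HFD, 0.0128 to 0.0274 in Control and 0.0154 to 0.0249 in HFD+Mino, so that the groups were only narrowly apart. Aldoc, Gfap and Slc1a3 were named after their values were seen, and the part of astrocyte markers in the C4b result was not tested.

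C3, the component on which the complement pathways converge, was scarce (chr17:57203967-57228136, 5143 nt of exon). It was measured at 2.96, 4.49 and 2.03 CPM in Control, 6.27, 4 and 3.39 CPM in HFD, and 2.67, 0.743 and 0.956 CPM in HFD+Mino. The raw counts behind these values were 20 to 159 per sample. Every HFD+Mino sample was below every HFD sample, as in 23.5% of all tested genes, and HFD overlapped Control. The difference between HFD+Mino and HFD was -1.64 on the log2 scale (SE 0.55), with an FDR of 0.045 that did not pass 0.01. Between HFD and Control it was 0.52 (SE 0.53, FDR 0.611), and between HFD+Mino and Control -1.12 (SE 0.54, FDR 0.257).

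The genes for the C1q chains lie next to each other on chromosome 4, C1qb at chr4:136880126-136886200, C1qc at chr4:136889801-136892936 and C1qa at chr4:136895916-136898844. They were measured in nearly constant proportion to each other. C1qa was at 46.4, 29.2 and 23 CPM in Control, 22.9, 26.5 and 24.1 CPM in HFD, and 75.5, 45.5 and 40.2 CPM in HFD+Mino. C1qb was at 48.3, 32.0 and 22.8 CPM in Control, 24.7, 33.9 and 26.1 CPM in HFD, and 95.2, 47.3 and 47.1 CPM in HFD+Mino. C1qc was at 81.1, 60.9 and 39.3 CPM in Control, 48.8, 61.1 and 52.3 CPM in HFD, and 134, 100 and 89.3 CPM in HFD+Mino. For each chain all HFD+Mino samples were above all HFD samples, which held upward for 23.3% of tested genes, and Control overlapped HFD. C1qc was also the only member with every HFD+Mino sample above every Control sample, which held for 8.93% of tested genes. The summed C1q level ranged 3.58-fold over the samples, from 85.0 to 304 CPM, while the ratio of C1qb to C1qa stayed between 0.99 and 1.28 and that of C1qc to C1qa between 1.71 and 2.30.

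None of the chains was called at an FDR under 0.01. C1qa was 1.13 higher in HFD+Mino than in HFD on the log2 scale (SE 0.31, FDR 0.0243), C1qb 1.16 (SE 0.35, FDR 0.0317) and C1qc 0.99 (SE 0.28, FDR 0.0254). Leaving out 1 sample moved C1qa between 0.81 and 1.30, C1qb between 0.74 and 1.33 and C1qc between 0.81 and 1.11. The lowest values came without HFD+Mino replicate 1, the highest sample for each chain (FDR 0.104, 0.141 and 0.0999). HFD against Control gave -0.42, -0.28 and -0.16 (FDR 0.472 to 0.782). Without Control replicate 1 these were -0.09, 0.04 and 0.11, so that the sign for C1qb and C1qc turned. HFD+Mino stood 0.71, 0.88 and 0.83 above Control for C1qa, C1qb and C1qc (FDR 0.147 to 0.219). With the replicate block in Control and HFD+Mino all 3 chains were called between HFD+Mino and HFD (1.08, 1.08 and 0.98, FDR 0.000886 to 0.00193), in a fit that called 25.6% of genes.

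The C1q chains mark microglia, and 20 other microglial markers were read beside them. Their sum was 495 to 828 CPM in Control, 638 to 688 CPM in HFD and 753 to 957 CPM in HFD+Mino. Summed C1q was 18.9 ± 2.09% of that sum in Control and 16.2 ± 2.52% in HFD, and 25.6 ± 5.42% in HFD+Mino. The markers did not all go one way: Tyrobp, a short transcript for a signalling adaptor, went from 28.7 ± 0.673 CPM in HFD to 76.5 ± 35.7 CPM in HFD+Mino, while Csf1r, a long transcript for the receptor that microglia need to survive, went from 100 ± 9.6 to 51.3 ± 30.9 CPM, neither difference passing an FDR of 0.01. The ratio of C1qa to Tyrobp was accordingly 0.778 to 0.945 in HFD and 0.554 to 1.05 in HFD+Mino, and that of C1qa to Csf1r was 0.215 to 0.297 in HFD and 0.463 to 2.05 in HFD+Mino. Both genes were named after their values were seen. Of the 20 microglial markers, 0 were called between HFD+Mino and HFD by edgeR's quasi-likelihood test, 11 had an unadjusted p under 0.05 (7 higher, 4 lower), which 41.3% of all genes had, and DESeq2 called 5, where it called 23% of all genes.

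**Figure D2:**
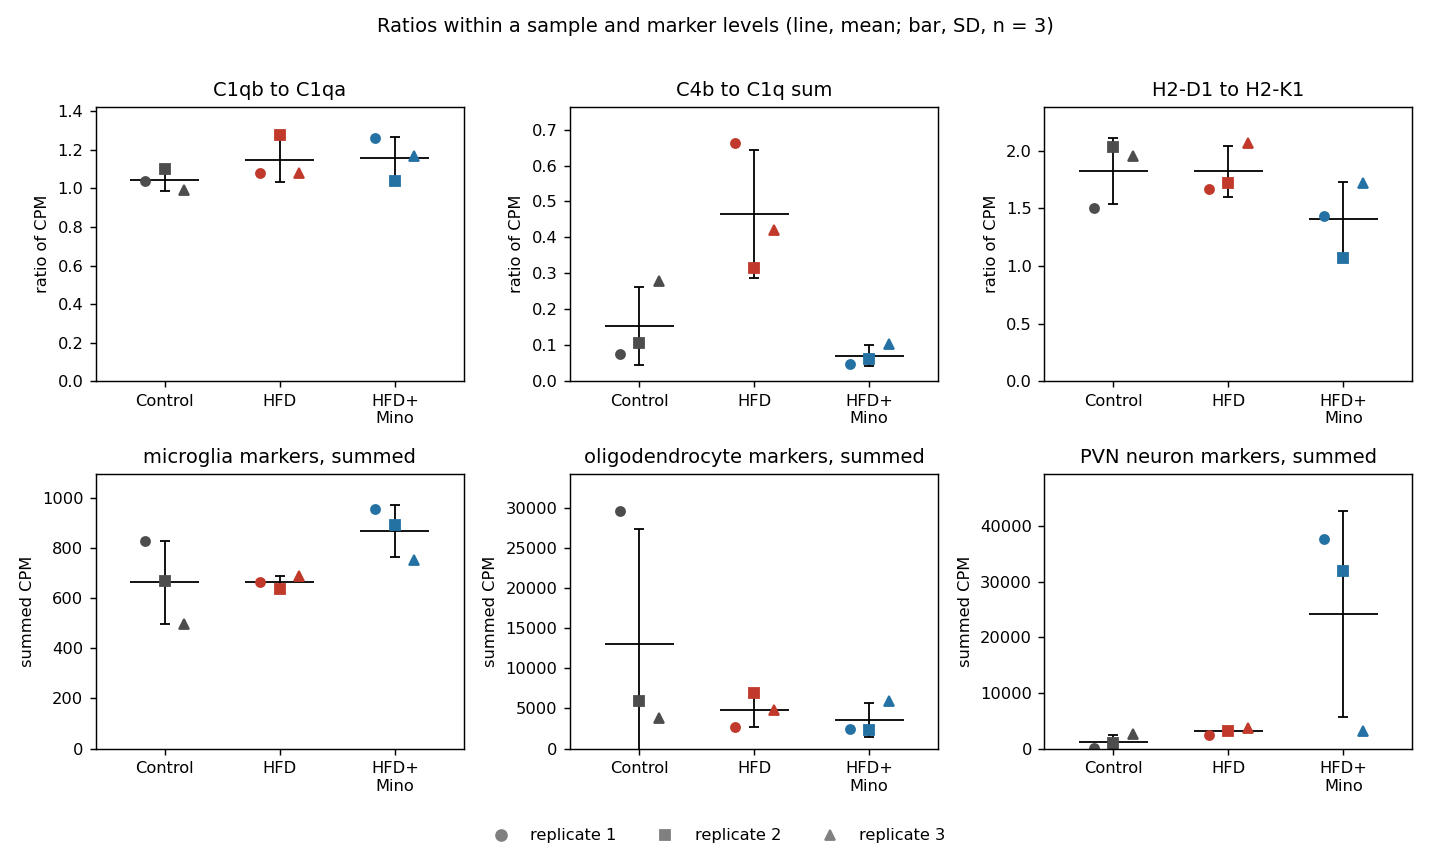
Ratios of CPM within a sample (top: C1qb to C1qa, C4b to the C1q sum, H2-D1 to H2-K1) and summed CPM of marker lists (bottom: microglia, oligodendrocytes, PVN neurons) in the 9 samples; all axes are linear and start at 0, lines are means and bars the SD of 3 mice, cut off at 0. The ratio of C1qb to C1qa is nearly level, and that of C4b to C1q is 0.315 to 0.663 in HFD against at most 0.278 elsewhere. Control replicate 1 stands apart in oligodendrocyte markers. In PVN markers HFD+Mino replicates 1 and 2 stand apart at 37700 and 31900 CPM, and Control replicate 1 is the lowest at 27.8 CPM.

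Set against C1q, C4b again kept HFD apart from the other groups. C4b did so by itself (38.3 CPM or more against 23.6 CPM or less), so this is not a separate result. The ratio of C4b to summed C1q was 0.466 ± 0.179 in HFD, 0.153 ± 0.109 in Control and 0.0706 ± 0.0291 in HFD+Mino, and the lowest HFD sample (0.315) was above the highest of the other samples (0.278). The ratio sets a long transcript against short ones, and with the exon length trend removed the differences between HFD+Mino and HFD were -1.33 for C4b and 0.05 to 0.37 for the C1q chains, in place of -1.71 and 0.99 to 1.16.

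For the MHC genes, RefSeq promoters of GRCm38.p6, taken from 250 bases before to 50 bases after the start of transcription, were available for B2m, H2-K1, H2-D1 and H2-Aa, and of the complement genes for C1qb, C1qc and C3, making 7 of the 10 members. Genes of antigen presentation are known to share the X2 and Y boxes, bound by factors that recruit the coactivators of class I and class II transcription. The core TGACG of the X2 box followed after 20 or 21 bases by the Y box ATTGG, searched on both strands, was found in all 4 of these MHC promoters and in none of the 3 complement promoters. Of 32851 promoters in the table, 54 (0.164%) held this pair. The spacing was set after looking at the members, so the match describes them only. The Y box read on the other strand is the CCAAT box, present in 37.4% of promoters, and each pair therefore also counts as a CCAAT match. The stretches are shown because they are what B2m, H2-K1, H2-D1 and H2-Aa have in common, with the pair in capitals, together with the interferon-stimulated response element (GAAA, any 2 bases, GAAA) at the start of the B2m stretch (3.44% of promoters) and the palindrome of the NF-kB type at the start of the H2-K1 and H2-D1 stretches (10 of 32851 promoters, 0.0304%).
B2m, chr2:122147542-122147644, plus strand: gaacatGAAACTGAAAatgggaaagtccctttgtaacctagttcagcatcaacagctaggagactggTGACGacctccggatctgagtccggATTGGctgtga
H2-K1, chr17:34000353-34000464, minus strand: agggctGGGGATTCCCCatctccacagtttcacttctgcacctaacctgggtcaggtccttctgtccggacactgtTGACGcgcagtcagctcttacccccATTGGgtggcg
H2-D1, chr17:35262917-35263028, plus strand: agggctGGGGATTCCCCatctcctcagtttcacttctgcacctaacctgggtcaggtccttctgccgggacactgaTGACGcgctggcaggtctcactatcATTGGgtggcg
H2-Aa, chr17:34287861-34287903, minus strand: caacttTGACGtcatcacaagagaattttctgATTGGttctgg

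The pair began 78 bases before the start of transcription in B2m, 55 in H2-K1 at its later annotated start, 101 in H2-D1 and 74 in H2-Aa, and its boxes were 20 bases apart in class I and B2m and 21 in H2-Aa. GAGGAAGT, a form of the PU.1 site of macrophage genes, was found in C1qc (3.2% of promoters). TTCNNNGAA, the interferon gamma activated site, was found in none of the 7 members with a promoter (8.3% of promoters). C1qa, C4b and Cd74 had no promoter to search. In all, 47 genes had the pair in a promoter. They included 41 tested genes with a median of 0.41 on the log2 scale between HFD+Mino and HFD, against 0.01 over all tested genes. The median was 1.59 for the 5 of them on a list used here (the 4 members and H2-M3) and 0.18 for the 36 other tested genes.

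B2m, the light chain of every classical class I molecule (chr2:122147687-122153082, 860 nt of exon), had the largest difference of the 3 class I members between HFD+Mino and HFD and the widest spread. It was at 313, 162 and 89.8 CPM in Control, 106, 108 and 108 CPM in HFD, and 400, 610 and 172 CPM in HFD+Mino. All HFD+Mino samples were above all HFD samples, and the HFD samples lay within the Control range. The difference between HFD+Mino and HFD was 1.87 on the log2 scale (SE 0.48, FDR 0.0192), not past 0.01, and it was 2.23 (FDR 0.00261) without HFD+Mino replicate 3 and 1.41 (FDR 0.0642) without replicate 2. With the replicate block in Control and HFD+Mino it was 1.72 (FDR 0.00083), past the threshold, in a fit that called 25.6% of genes. B2m was then also called in the 3-way test (FDR 0.00182), where that fit called 13.2% of genes. HFD against Control was -0.81 (SE 0.47, FDR 0.363), and -0.23 (FDR 0.904) without Control replicate 1. HFD+Mino stood 1.07 above Control (SE 0.47, FDR 0.225).

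The heavy chains moved less than B2m. H2-K1 (chr17:33996012-34000619) was at 77.3, 39.1 and 44.0 CPM in Control, 34.7, 37.8 and 36.2 CPM in HFD, and 92.9, 69.3 and 49.9 CPM in HFD+Mino. It was the only member with every HFD sample below the other 6, a pattern shared by 9.62% of tested genes, although the lowest Control sample was only just above the highest HFD sample. HFD+Mino stood 0.96 above HFD (SE 0.30, FDR 0.0369) and HFD -0.56 from Control (SE 0.30, FDR 0.317), the latter being -0.20 without Control replicate 1. Leaving out 1 sample moved the former between 0.72 (FDR 0.145, without HFD+Mino replicate 1) and 1.16. The replicate block in Control and HFD+Mino gave 0.92 (FDR 0.0026) between HFD+Mino and HFD, past the threshold, in a fit that called 25.6% of genes.

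H2-D1 (chr17:35263094-35267497), the other classical heavy chain, was at 116, 79.6 and 85.8 CPM in Control, 57.9, 65.0 and 74.9 CPM in HFD, and 133, 74.0 and 85.7 CPM in HFD+Mino. HFD lay below Control in all samples, as 16% of tested genes did, and overlapped HFD+Mino. The differences were -0.51 for HFD against Control (SE 0.26, FDR 0.301), 0.57 for HFD+Mino against HFD (SE 0.26, FDR 0.127) and 0.06 for HFD+Mino against Control (SE 0.26, FDR 0.915). The ratio of H2-D1 to H2-K1 was 1.83 ± 0.285 in Control and 1.82 ± 0.218 in HFD, and it was 1.41 ± 0.325 in HFD+Mino, with overlap between the groups. B2m per summed heavy chain ranged from 0.692 to 4.26 over the samples and was highest in HFD+Mino replicate 2. Of the 50 nt windows along the H2-K1 transcript, 6.85% also occurred in other genes (21 genes), and of those along H2-D1 14.5% (86 genes). Other class I genes were among them, and these counts are uncertain to that extent. Windows of the other members, C4b aside, occurred in no other gene.

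Class II transcripts were scarce and varied widely between mice of a group. Cd74 (chr18:60803849-60812652) was at 11.4, 2.51 and 3.24 CPM in Control, 4.07, 3.22 and 3.16 CPM in HFD, and 12.3, 7.02 and 4.48 CPM in HFD+Mino. All HFD+Mino samples were above all HFD samples, and the difference was 1.19 on the log2 scale (SE 0.57, FDR 0.137). HFD against Control gave -0.72 (SE 0.56, FDR 0.503), which turned to 0.27 without Control replicate 1. H2-Aa (chr17:34282744-34287823) was at 3.65, 0.198 and 0.324 CPM in Control, 0.602, 0.899 and 1.15 CPM in HFD, and 1.16, 6.02 and 1.04 CPM in HFD+Mino, with 7 to 162 raw counts per sample. The groups overlapped in every comparison. Its difference between HFD+Mino and HFD was 1.61 (SE 1.03, FDR 0.261), and 0.31 (FDR 0.859) without HFD+Mino replicate 2. Both class II genes had their 3 highest samples in Control replicate 1 and HFD+Mino replicates 1 and 2, in a different order, and the ratio of Cd74 to H2-Aa ran from 1.17 in HFD+Mino replicate 2 to 12.7 in Control replicate 2.

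**Figure D3:**
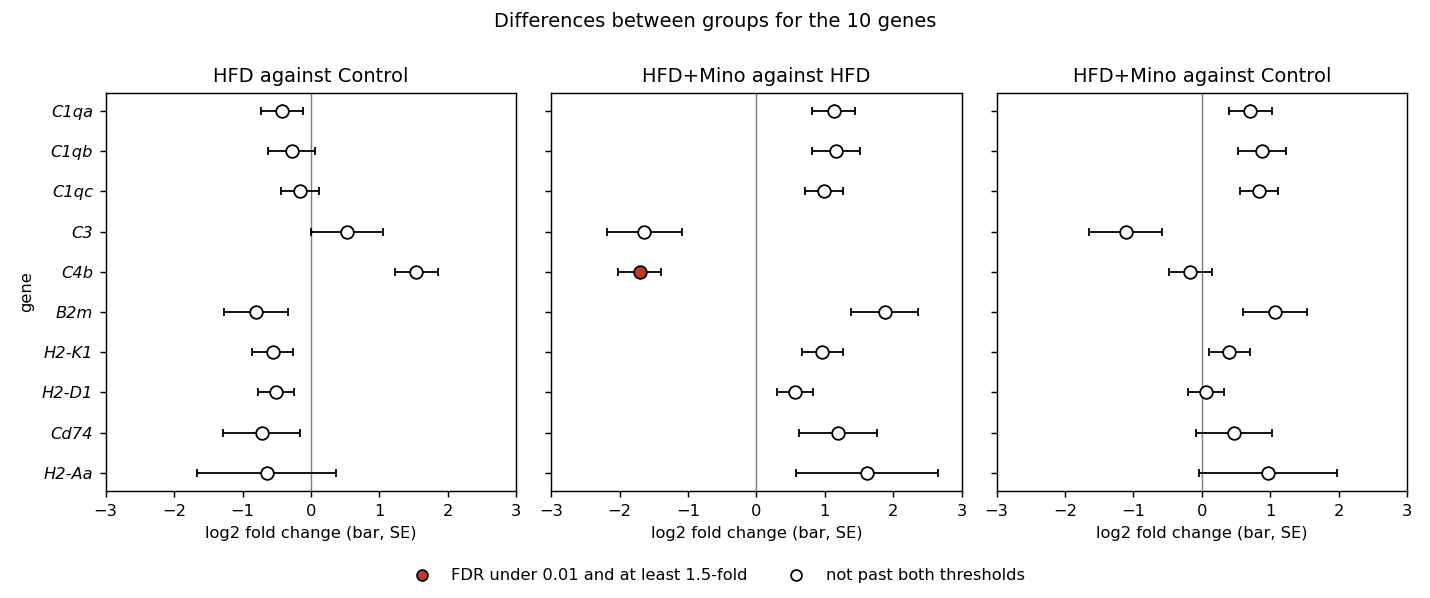
Difference between groups on the log2 scale (horizontal axis) for each of the 10 genes in the 3 comparisons of group pairs; points are edgeR estimates, bars the SE, and filled points passed an FDR under 0.01 and 1.5-fold. C4b in HFD+Mino against HFD, at -1.71, is the only filled point.

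Over the 10 members, the 3 pair comparisons share samples and are therefore given side by side and not set against each other. Between HFD+Mino and HFD, all samples of 6 members were higher (23.3% of all tested genes) and those of 2 lower (23.5%) without overlap, and 8 members had a positive and 2 (C3 and C4b) a negative estimate, with a median of 1.06 against 0.01 over all tested genes. With the trend on exon length described further on removed, that median was 0.30 against 0.06. An unadjusted p under 0.05 was reached by 7 members, where 41.3% of all tested genes reached it. At an FDR under 0.05 the 7 were C1qa, C1qb, C1qc, B2m and H2-K1 upward and C3 and C4b downward, and 27.4% of tested genes passed that looser threshold. HFD against Control had 8 negative and 2 positive estimates (C3 and C4b), with a median of -0.47 against 0.00 over all genes. Without Control replicate 1 this tally did not hold: 6 estimates were positive and 4 negative, with a median of 0.07 against 0.03 over all genes. C4b had an unadjusted p under 0.05, as did 20.5% of all genes, and was the only member with all HFD samples above Control (19.7% of genes). In the 3-way test 7 members had an unadjusted p under 0.05, against 39.0% of all genes. For HFD+Mino against Control the median was 0.59 against -0.02, and 0 members and 0 of 17344 genes were called by edgeR's quasi-likelihood test, with 4 members (C1qa, C1qb, C1qc and B2m) and 3697 genes (21.3%) at an unadjusted p under 0.05. DESeq2 called 276 genes there (1.59%), edgeR's likelihood ratio test 106 (0.611%) and the replicate block 551 (3.18%), with 0 members among them.

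Other ways of testing called more members and more genes of all kinds. In the 3-way test 2 members (C4b and B2m) were called by DESeq2, which called 13.6% of all genes, by the likelihood ratio test (12.9%), with the replicate block (13.2%) and at an FDR under 0.05 (13%). Between HFD and Control C4b alone was called by DESeq2 (6.91%), by the likelihood ratio test (5.57%) and at an FDR under 0.05 (5.77%). Between HFD+Mino and HFD, 5 members (C4b, B2m and the C1q chains) were called by DESeq2 (23%) and by the likelihood ratio test (19.1%).

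Exon length moved with the differences over all tested genes. The C1q chains and B2m are short and C3 and C4b are long. Between HFD+Mino and HFD the median was 1.34 for 389 genes under 1000 nt, 0.94 for 1798 genes of 1000 to 2000 nt, 0.22 for 4883 genes of 2000 to 4000 nt, -0.35 for 5844 genes of 4000 to 8000 nt, and -0.58 for 2712 genes of 8000 nt and over. Of the members, 5 (C1qa, C1qb, C1qc, H2-D1 and Cd74) lay within the quartiles of their length class, 3 (B2m, H2-K1 and H2-Aa) above them and 2 (C3 and C4b) below.

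With a smooth trend on exon length removed from each sample, the differences between HFD+Mino and HFD were 0.05 for C1qa, 0.10 for C1qb, 0.37 for C1qc and 0.59 for B2m, with FDRs of 0.897, 0.82, 0.213 and 0.176. H2-K1 kept 0.79 (FDR 0.068), H2-D1 had 0.24 and Cd74 0.37, and H2-Aa had 1.77 (FDR 0.268). C3 stood at -1.27 (FDR 0.143) and C4b at -1.33 (SE 0.28, FDR 0.0133). C4b then missed the threshold in this comparison, in the 3-way test (0.92, FDR 0.0123) and between HFD and Control (1.41, FDR 0.0125). This fit called 0 members in any comparison, against 2.15%, 2.39% and 2.7% of all genes in the 3-way test, HFD against Control and HFD+Mino against HFD. When a trend on GC content was removed as well, C4b passed in all 3, with 0.87 (FDR 0.00569) in the 3-way test, 1.39 (FDR 0.00516) between HFD and Control and -1.23 (FDR 0.00753) between HFD+Mino and HFD. With the replicate block in Control and HFD+Mino and the length trend removed together, C4b was the only member called between HFD+Mino and HFD (-1.34, FDR 0.00347). Shares of all genes called with both trends removed, or with this block and the length trend removed, are not given here.

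**Figure D4:**
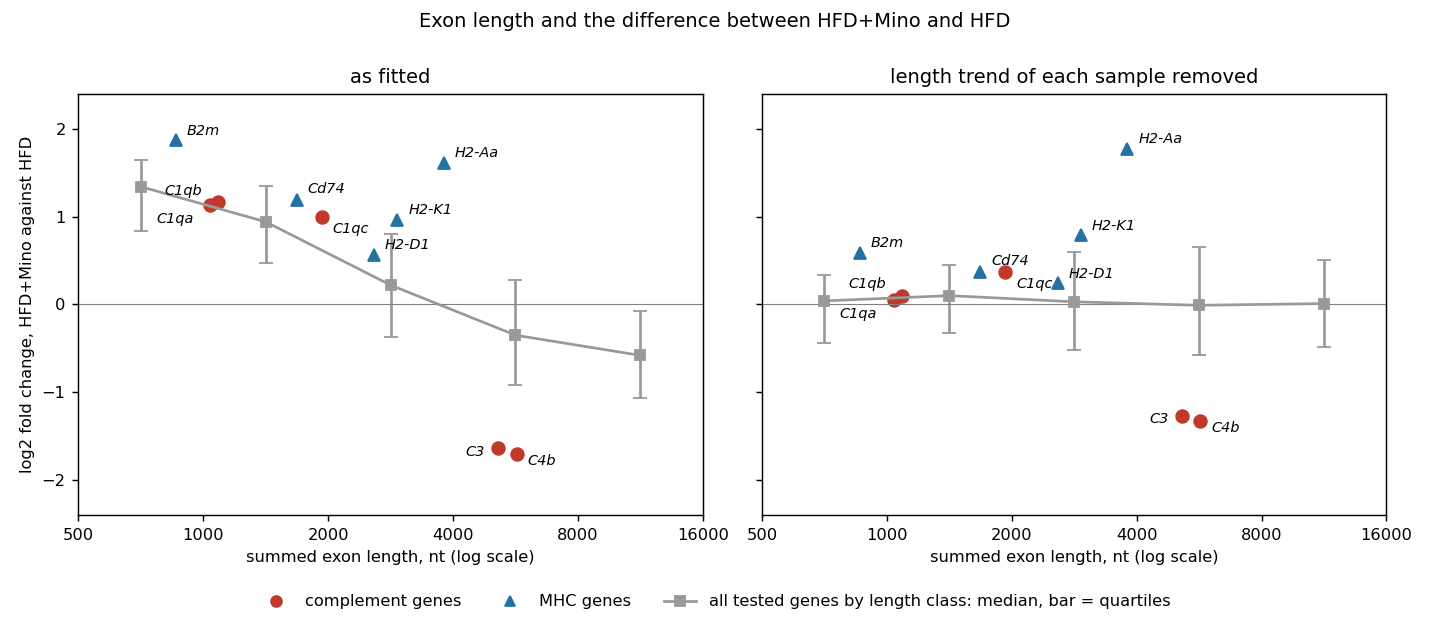
Difference between HFD+Mino and HFD on the log2 scale (vertical axis) against summed exon length (horizontal axis, log scale) for the 5 complement genes (circles) and 5 MHC genes (triangles), as fitted (left) and with the length trend of each sample removed (right); squares and bars are the median and quartiles of all tested genes in 5 length classes, drawn at the middle of each class as far as the axis shows it. C1qa and C1qb lie within the quartiles of their class in both panels, at 1.13 and 1.16 on the left (class median 0.94) and 0.05 and 0.10 on the right, while C3 and C4b stay below the quartiles.

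In the wider complement system 2 of 40 tested genes (5%) were called between HFD+Mino and HFD, near the 4.15% of all genes. Among 13 tested genes of the early components and proteases, C4b was the only call in any comparison. No call was made by edgeR's quasi-likelihood test among 6 tested genes of C3, the alternative pathway and the terminal components, where 3 had an unadjusted p under 0.05 between HFD+Mino and HFD (2 higher, 1 lower) and DESeq2 called 1 higher. Among the 8 receptors there was also no call by that test, with 1 higher and 1 lower at an unadjusted p under 0.05 and 1 lower call by DESeq2. Of all genes, 41.3% had such a p and DESeq2 called 23%. Of 13 inhibitors, 8 estimates were positive and 5 negative between HFD+Mino and HFD, and Cd59a, which encodes a membrane protein that blocks the terminal attack complex, was called. Cd59a was at 32.4, 39.5 and 20.3 CPM in Control, 16.3, 14.5 and 19.3 CPM in HFD, and 54.2, 93.5 and 33.9 CPM in HFD+Mino, a rise of 1.86 on the log2 scale from HFD to HFD+Mino (SE 0.37, FDR 0.00954). With the length trend removed the difference was 1.15 (FDR 0.031).

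Other genes of antigen presentation were read in the same way. The list of class I heavy chains and B2m had 19 tested genes. It also holds H2-Ke6, which lies in the MHC region but is not a heavy chain (48.2 CPM in HFD and 100 CPM in HFD+Mino). Between HFD+Mino and HFD, 15 estimates of this list were positive and 4 negative, with a median of 0.88 that became 0.43 without the length trend. None of the 19 passed an FDR under 0.01 in edgeR's quasi-likelihood test, 10 were higher and 0 lower at an unadjusted p under 0.05 (41.3% of all genes, either way), and DESeq2 called 4 higher (23% of all genes). Between HFD and Control 16 of the 19 estimates were negative, with a median of -0.68 that became -0.41 without the length trend. Without Control replicate 1, B2m was at -0.23, H2-K1 at -0.20 and H2-D1 at -0.33, in place of -0.81, -0.56 and -0.51. The tally and median of the whole list without that sample are not given here. Among 14 genes for peptide supply and loading, Psme1 and Psme2, the subunits of the interferon-inducible activator of the proteasome, were called between HFD+Mino and HFD, a comparison that called 4.15% of all genes. Psme1 was at 80.3 to 87.6 CPM in HFD and at 298, 269 and 145 CPM in HFD+Mino, a rise of 1.5 (SE 0.27, FDR 0.00785). Psme2 was at 34.8 to 40.5 CPM in HFD and at 138, 146 and 61.1 CPM in HFD+Mino, a rise of 1.61 (SE 0.32, FDR 0.00919). Without the length trend these were 0.99 (FDR 0.0161) and 0.86 (FDR 0.0262), and both calls were lost. In both genes HFD+Mino replicate 3 was the nearest to HFD.

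Of 13 tested class II genes, 12 estimates were positive between HFD+Mino and HFD, with a median of 1.1, or 0.53 without the length trend, and none was called by the quasi-likelihood test. Of them, 4 were higher and 0 lower at an unadjusted p under 0.05 (41.3% of all genes, either way), and DESeq2 called 2 (23% of all genes). Of 29 interferon response genes, 20 estimates were positive and 9 negative, with a median of 0.82, or 0.71 without the length trend. At an unadjusted p under 0.05, 13 were higher and 2 lower, and DESeq2 called 8, all higher. By the quasi-likelihood test 4.15% of all genes were called. Isg15, a ubiquitin-like protein induced by interferon, was the only call, at 0.552, 0.783 and 0.921 CPM in HFD and 7.36, 8.14 and 3.39 CPM in HFD+Mino, a rise of 3.04 (SE 0.57, FDR 0.00846) that was 1.74 (FDR 0.0213) without the length trend. Isg15 was at 4.99, 1.86 and 1.41 CPM in Control. Other tissue markers changed level over the same samples: endothelial markers summed to 284 to 350 CPM in HFD and 352 to 1070 CPM in HFD+Mino, perivascular macrophage markers to 3.57 to 4.37 and 5.27 to 14.3 CPM, and ependymal markers to 222 to 397 and 405 to 901 CPM. The endothelial sum was carried by Ly6c1, Ly6a and Itm2a. Of the 10 endothelial markers 5 estimates were positive and 5 negative, with a median of -0.18, and Kdr, a receptor for vascular endothelial growth factor, was called lower. The part of these cell types in the results was not tested.

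**Figure D5:**
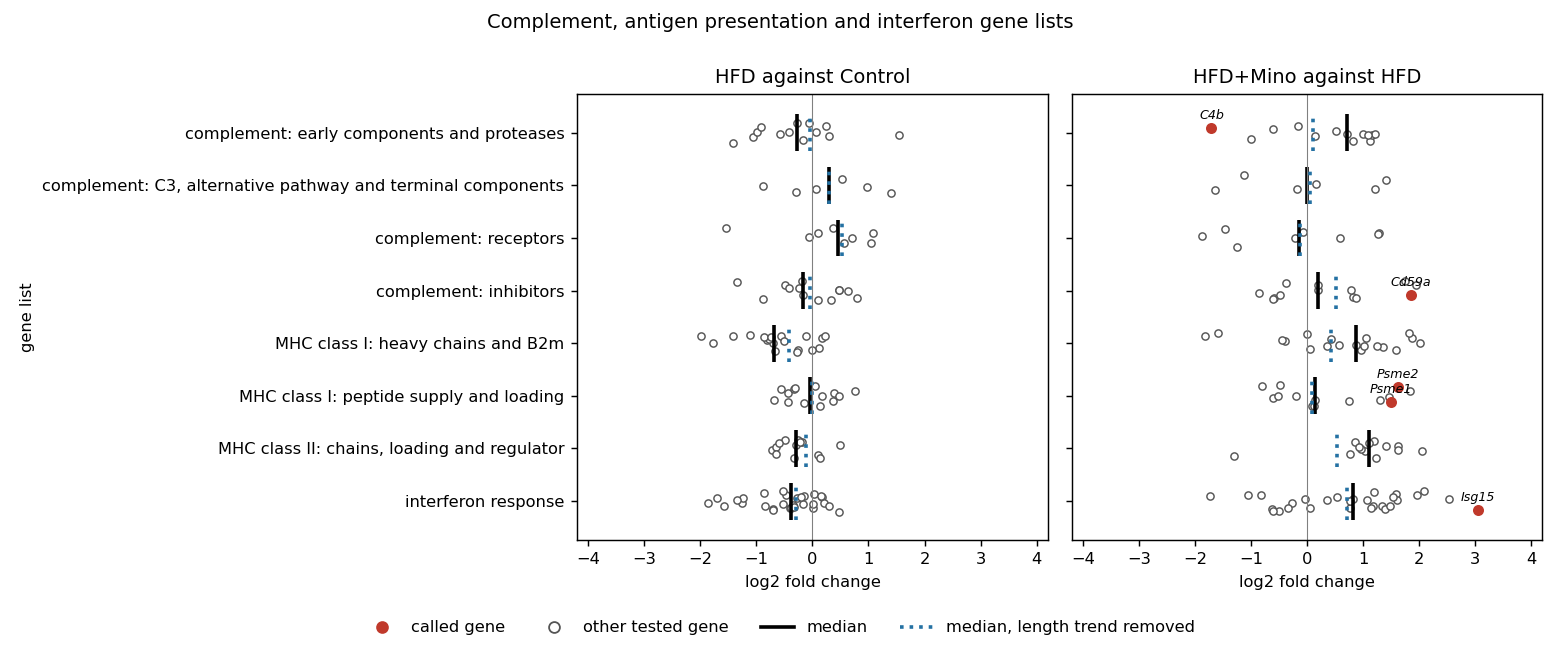
Difference on the log2 scale (horizontal axis) of each tested gene in 8 lists of complement, antigen presentation and interferon genes, for HFD against Control (left) and HFD+Mino against HFD (right); filled points passed an FDR under 0.01 and 1.5-fold, solid lines are list medians and dotted lines the medians with the length trend removed, and points are spread vertically only to be seen. The 5 filled points are C4b, Cd59a, Psme1, Psme2 and Isg15, and the class II median moves from 1.1 to 0.53.

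The genes most like the members were sought among 11851 tested genes with a mean of at least 5 CPM, by Pearson's r over the 9 samples with the mean standardised level of the C1q chains or of the class I genes. The 5 most like C1q were Arl6ip4, Ccs, Cfl1, Tceal6 and Fkbp1a, with r from 0.982 to 0.989, none of them a complement gene. C1qa with C1qb had 0.983, and C1qa with C1qc 0.959. The 5 most like B2m, H2-K1 and H2-D1 were Lgals9, Wfdc1, Eif1ad, Prph and Stx4a, with r from 0.975 to 0.986. B2m had 0.874 with H2-K1 and 0.535 with H2-D1, and C4b had -0.709 with C1qa, -0.754 with B2m and 0.583 with C3. These values share samples, groups and library preparation and describe these 9 samples only.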

How the data were processed

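Bulk RNA was sequenced from PVN punches of 3 mice in each group, with paired reads of 50 nt from a low-input kit (SMARTer v4 and Nextera XT) that does not mark strand. Per the submitters' processing notes, reads were aligned with HISAT2 to mm10 and assigned to genes with featureCounts, and the authors deposited raw counts per gene without normalization. Whether reads at several positions were counted is not given in the sources used here. Genes with an identifier but no symbol held 0.0785% to 0.0932% of a sample's counts and were kept. All 9 columns were used, and 0 were left out.

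Genes were filtered with filterByExpr, scaled by TMM and tested in edgeR 4.0.16 (R 4.3.3) by the quasi-likelihood test, with 1 mean per group fitted to the 9 samples and Benjamini-Hochberg adjustment over 17344 genes. Fold changes are on the log2 scale. Exon length and GC content come from GENCODE M21 (15626 tested genes had a length, and length trends used a lowess span of 0.3), positions and promoters from RefSeq GRCm38.p6. RPKM uses summed exon length, which covers all isoforms of a gene. Alternatives were DESeq2 1.42.0, the likelihood ratio test, other filters, scalings and thresholds, the replicate number as a block, trends on length and GC content, 6-sample fits and leaving out each sample. Removing length and GC trends together, and the block with the length trend, were added after seeing the data. The members and gene lists were chosen with earlier results of these data known. Named genes are the 10 members, the called genes of the pathway lists, and the 5 genes most like C1q and class I. The code was tested on simulated data.

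Same-numbered samples of Control and HFD+Mino deviated together from their group means (r of 0.135, 0.163 and 0.292 across genes), and those of HFD, numbered by their titles, did not (-0.152 to -0.006). Pairs of Control and HFD+Mino with different numbers had r of -0.162 to 0.026. Other pairs with different numbers reached similar values, such as 0.167 for Control replicate 2 with HFD replicate 1. The r values alone therefore do not establish a pairing. The column names give the HFD samples later numbers than the titles do. By column name, HFD replicate 1 shares its number with replicate 3 of Control (r 0.038) and of HFD+Mino (r 0.017). Whether HFD samples have counterparts in the other groups is therefore uncertain. This pairing comes from the counts, since no source names a shared litter or day. Counts of replicates, which came from separate mice, differed beyond sampling error (chi-square over its degrees of freedom, 21.1 to 319). Reads carry no molecular identifiers, so precision was taken from the spread between mice.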

Additional observations from a re-analysis of the deposited data

How the results depend on the processing

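The number of the 10 members called was 1 in the 3-way test, 0 in HFD against Control, 1 in HFD+Mino against HFD and 0 in HFD+Mino against Control. In the 3-way test it was 2 (C4b and B2m) with DESeq2, the likelihood ratio test, no filter on low counts, the replicate block in Control and HFD+Mino alone, and an FDR under 0.05, and 0 with the length trend removed. HFD against Control gave 1 (C4b) with DESeq2, the likelihood ratio test, no filter, that block, an FDR under 0.05, the GC trend removed, both trends removed, and the block with the length trend removed. HFD+Mino against HFD gave 5 with DESeq2 and with the likelihood ratio test, 2 with no filter, 6 with that block, 7 with an FDR under 0.05, and 0 with the length trend removed. HFD+Mino against Control stayed at 0 under every alternative. Leaving out 1 sample gave 0 to 2 in the 3-way test, 0 to 1 in HFD against Control, 0 to 3 in HFD+Mino against HFD and 0 to 0 in HFD+Mino against Control. A replicate block in all 3 groups, with HFD numbered by title, left the 4 counts as they were. The cause of these changes was not tested. Shares of all genes called are not given here for no filter, the GC trend removed, both trends removed, or the block with the length trend removed. Nor are they for the block in all 3 groups or the fits that left out 1 sample. Member counts from these fits cannot be set against all genes.

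The sign of some small differences turned. For HFD against Control, C1qc was 0.09 with the length trend removed and 0.11 with the block as well, and leaving out 1 sample moved C1qb between -0.51 and 0.04, C1qc between -0.4 and 0.11, Cd74 between -1.07 and 0.27 and H2-Aa between -1.15 and 1.76, the positive ends all without Control replicate 1. For HFD+Mino against Control with the length trend removed, C1qa was -0.14, C4b 0.08, H2-D1 -0.09 and Cd74 -0.04. With the block as well C1qa was -0.15, C4b 0.10 and H2-D1 -0.10, and with both trends removed C4b was 0.16, B2m -0.03 and H2-D1 -0.02. Leaving out 1 sample moved C4b between -0.35 and 0.17, H2-D1 between -0.24 and 0.24 and H2-Aa between -0.34 and 3.37. DESeq2 gave no adjusted p for H2-Aa. C3 and H2-Aa are limited by depth, with 20 to 159 and 7 to 162 counts per sample.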
